A study of Mus musculus with 23 samples.

Results

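A set of 37 genes of glycolysis, the pentose phosphate pathway, glycogen metabolism and the hypoxia response was followed in cardiac macrophages after myocardial infarction. Its members were taken by gene name from a deposited table of 54532 genes. Each of the 37 names was found, and Aldoa had a second row under the same name, so that 38 rows were measured. All 38 passed the filter on low counts. The poly(A) RNA came from Ly6G- CD11b+ cells sorted magnetically from hearts of C57BL/6 mice, which removes Ly6G+ neutrophils and then keeps CD11b+ myeloid cells. All mice carried 2 loxP-flanked Smad7 alleles. S7fl/fl mice are Smad7 fl/fl without Cre. MyS7KO mice are Smad7 fl/fl with LyzM-Cre, in which the lysozyme M promoter drives Cre in myeloid cells, so the deletion of Smad7, an inhibitor of TGF-beta signalling, is not limited to macrophages. Cells were taken from control hearts (baseline) or after 3 or 7 days of coronary occlusion. The groups held 3 S7fl/fl and 3 MyS7KO libraries at baseline, 5 and 5 at day 3, and 3 and 4 at day 7, which makes 23 libraries in 6 groups.

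Glycolysis splits glucose into pyruvate in the cytosol and yields ATP without oxygen. The pentose phosphate pathway branches off after the hexokinase step and yields NADPH and ribose phosphate. When oxygen falls, prolyl hydroxylases no longer mark HIF-1alpha for destruction, and the stabilised factor drives most glycolytic genes together with genes of mitophagy, vascular tone and oxygen sensing. Macrophages that enter injured tissue are known for a high glycolytic rate, while tissue-resident macrophages rely more on oxidative metabolism.

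Libraries held 15479402 to 23884938 counts. Macrophage markers were high in all 23 libraries (8 genes, summed 7685 to 18947 CPM, which are counts scaled to library size). At baseline these sums were 9941 to 11068 CPM in S7fl/fl and 7685 to 10265 in MyS7KO. They were 13085 to 15886 and 10416 to 12333 at day 3, and 17025 to 18947 and 11053 to 14022 at day 7. The sums were thus lower in MyS7KO at both later times, without overlap. The 8 genes include Lyz2, the lysozyme M gene, and the source of this gap was not tested. Against baseline, 4 of the 8 macrophage markers rose and 2 fell at day 3 in each genotype. At day 7, 7 were above baseline in S7fl/fl and 6 in MyS7KO, and 0 were below. Summed CPM of 7 classical monocyte markers was 344 to 663 at baseline, 3687 to 9202 at day 3 and 2345 to 4533 at day 7, and that of 7 resident cardiac macrophage markers was 5031 to 8025, 1497 to 2875 and 975 to 1864. Of the monocyte markers 7 of 7 in S7fl/fl and 6 of 7 in MyS7KO rose by day 3, and all 7 resident markers fell in both. At day 7, only 3 of 7 monocyte markers were called above baseline in each genotype (median log2 0.64 and 0.60). From day 3 to day 7, 5 of these 7 fell in each genotype. The 9 neutrophil markers summed to 95.7 to 213 CPM, with Ly6g at 0 in 3 of the 6 groups. Of the 8 that were tested, 1 rose and 3 fell by day 3 in S7fl/fl, and 1 rose and 5 fell in MyS7KO. The 7 fibroblast markers summed to 500 to 1053 CPM at baseline, 247 to 1219 at day 3 and 1285 to 5080 at day 7. From day 3 to day 7, 5 of these 7 rose in S7fl/fl and 7 of 7 in MyS7KO. The 6 endothelial markers summed to 745 to 1641 CPM at baseline, 230 to 559 at day 3 and 122 to 819 at day 7. In bulk RNA, a change in the share of cells of a type and a change in RNA per cell cannot be told apart, and the part of either in the results below was not tested. Cardiomyocyte markers, of a cell type rich in muscle isoforms of these enzymes, summed to 80.1 to 126 CPM at baseline, 13.3 to 35.3 at day 3 and 15.5 to 73.1 at day 7, and none of the 10 was at 0 in any group. Smad7 was below every S7fl/fl library of the same time in each MyS7KO library (19.7 to 48.7 against 53.1 to 61.2 CPM at baseline, 10.5 to 19.9 against 30.4 to 42 at day 3, 16 to 33.4 against 57.4 to 70.2 at day 7), although edgeR adjusted p was 0.999, 0.11 and 0.0702. A minor signal of the other sex was above a limit of 2% in S7fl/fl day 3 replicate 4 (7.83%) and MyS7KO day 3 replicate 3 (2.87%), with MyS7KO day 3 replicate 2 just under it at 1.97%. Without these 2 libraries the only member call against baseline that ended was that of Hk1 at day 3 in S7fl/fl (edgeR adjusted p = 0.0882), the calls of Pfkp, Tkt and Bnip3 from day 3 to day 7 in S7fl/fl also ended (0.0907, 0.0816 and 0.0841), and Ankrd37 at day 7 in S7fl/fl became one (0.0305). Nothing in the labels ties each library to a heart of its own. The p-values therefore rest on library-to-library spread, which may be technical.

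By day 3, most of the set was higher in both genotypes. Against baseline, 30 of 38 rows rose and 5 fell in S7fl/fl macrophages, where 29.9% of all 16545 genes tested rose and 34.1% fell. In MyS7KO macrophages 30 rose and 4 fell, against 30.7% and 35.2% of all genes. The median log2 change was 1.32 in S7fl/fl and 1.34 in MyS7KO, beside medians of -0.06 and -0.10 over all genes. The call was an adjusted p under 0.05 (edgeR quasi-likelihood test, Benjamini-Hochberg adjustment over all genes). The baseline and day 3 groups did not overlap in any of the 35 and 34 rows that passed, where this held for 87.6% and 88.6% of all genes called. Over all genes tested, called or not, these groups were apart for 58.4% in S7fl/fl and 60.8% in MyS7KO. These 2 comparisons share no library. They had 34 calls in common, all in the same direction, which is 97.1% of the S7fl/fl and 100% of the MyS7KO calls, where over all genes the shared calls were 87.8% and 85.3%.

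At day 7 the set was still above baseline, but lower than at day 3. Against the same baseline libraries, 26 rows were higher and 3 lower in S7fl/fl (background 24.8% and 25.4% of all genes), and 26 were higher and 2 lower in MyS7KO (background 22.2% and 21.8%). The median log2 differences from baseline were 0.82 and 0.73, against -0.02 and -0.01 over all genes. From day 3 to day 7, 22 rows fell and 3 rose in S7fl/fl, where 10.1% of all genes fell and 11.5% rose. In MyS7KO 23 fell and 3 rose, where 19.1% of all genes fell and 20.5% rose. The median log2 change from day 3 to day 7 was -0.46 in S7fl/fl and -0.57 in MyS7KO, beside 0.01 and 0.08 over all genes. Day 7 did not overlap with baseline in 30 of 38 rows in S7fl/fl and 28 in MyS7KO, beside 57.3% and 43.9% of all genes. It did not overlap with day 3 in 25 and 26 rows, beside 25.3% and 31.1% of all genes. Statements below that times did not overlap stand beside these shares. The 17 rows of glycolytic enzymes from hexokinase to lactate dehydrogenase took 0.302 to 0.347% of all counts in the 6 baseline libraries, 0.974 to 1.19% in the 10 day 3 libraries and 0.481 to 0.651% in the 7 day 7 libraries. The 6 pentose phosphate enzymes took 0.051 to 0.0626%, 0.135 to 0.152% and 0.0916 to 0.121%.

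**Figure D1:**
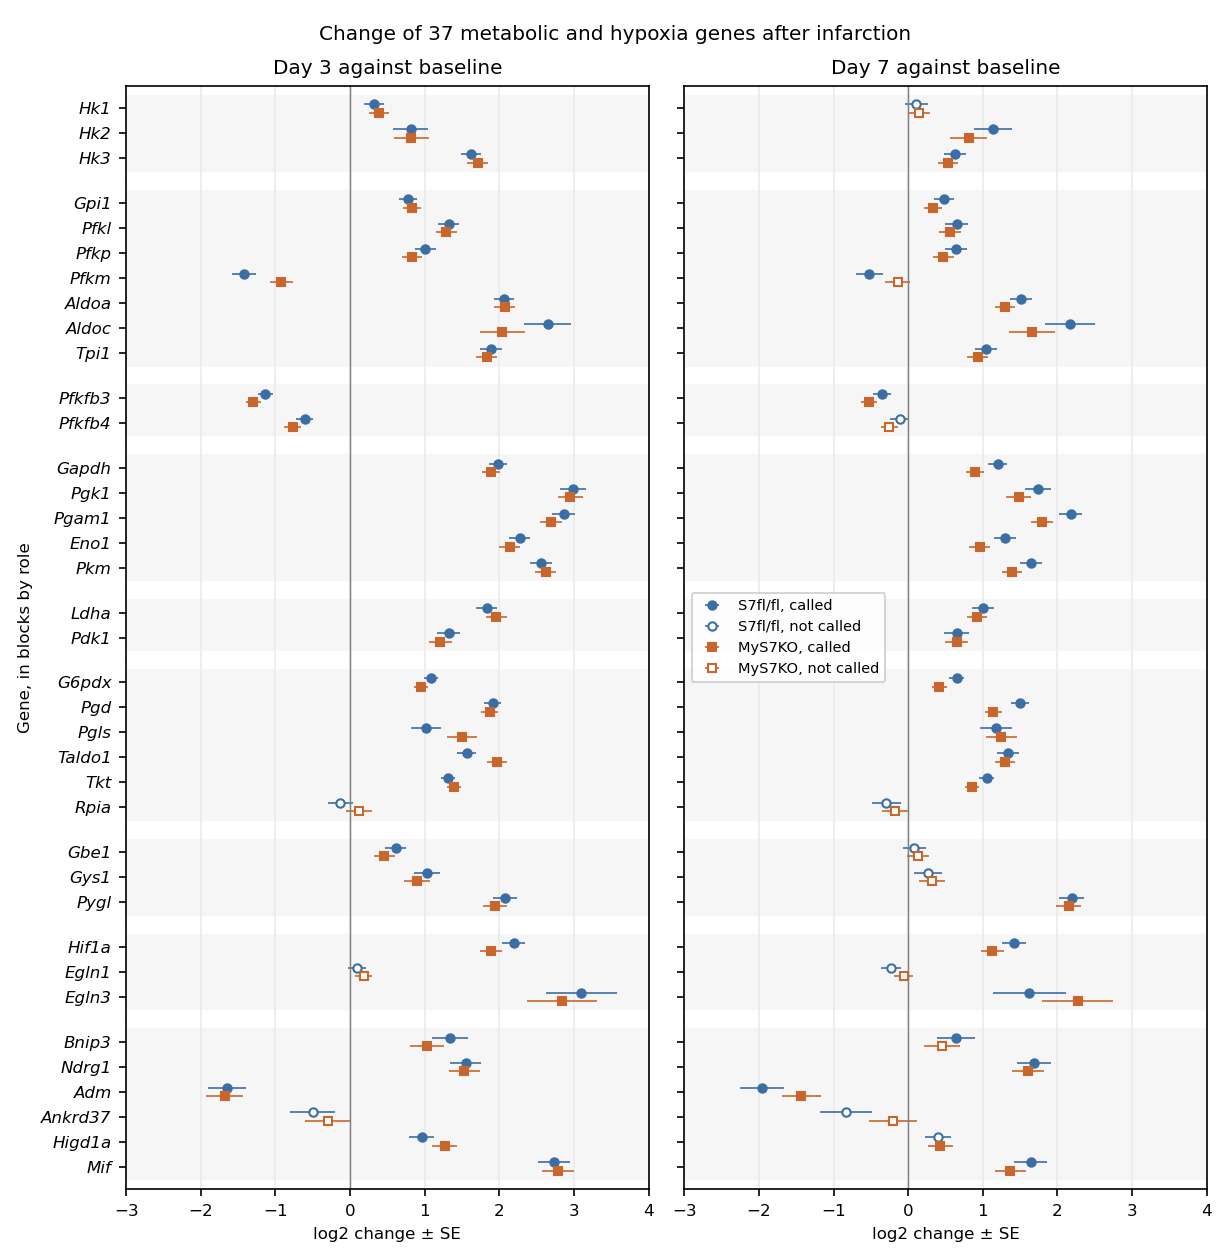
Log2 change (x axis, with standard error) of each of the 37 genes (y axis, in blocks by role) at day 3 and at day 7 against baseline, for S7fl/fl (blue circles) and MyS7KO (orange squares); filled symbols passed an edgeR adjusted p under 0.05. Most genes lie to the right of 0 on both days and nearer to 0 at day 7, while Pfkm, Pfkfb3, Pfkfb4 and Adm lie to its left at day 3.

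**Figure D2:**
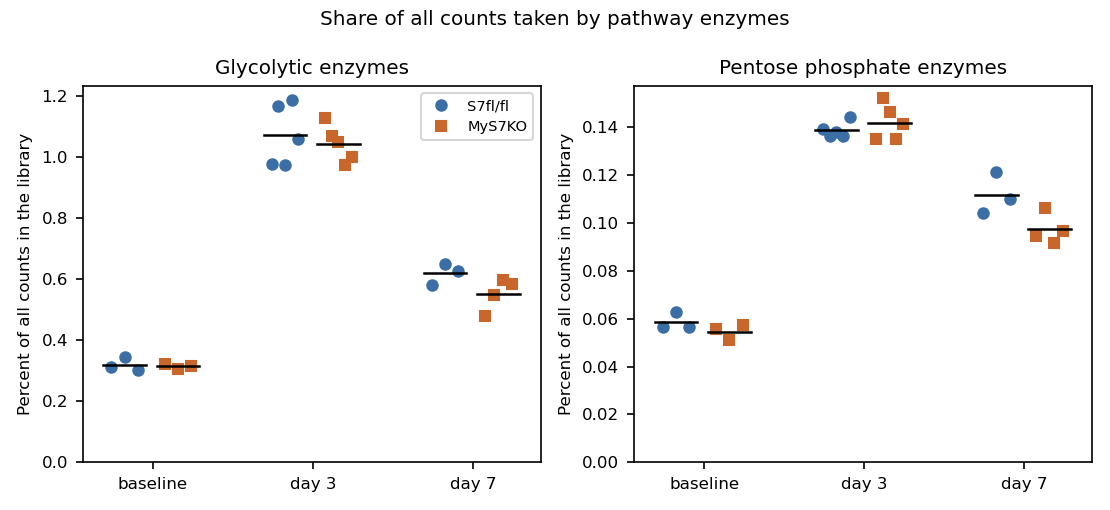
Share of all counts (y axis, percent, from 0) taken by the glycolytic enzymes and by the pentose phosphate enzymes in each library (points), by time and genotype, with group means as lines. All 10 day 3 libraries lie above all baseline and day 7 libraries in both panels.

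HIF binds DNA at the core letters ACGTG or GCGTG of the hypoxia response element, so the upstream bases of 6 members are shown to place these letters: 4 genes that rose (Pgk1, Pgam1, Ldha, Egln3) and 2 that fell (Pfkm, Adm). These 6 were chosen after their values were seen. The sequences are the 250 bases before the first listed start of each gene in RefSeq (build GRCm38.p6), 5′ to 3′ on the gene's strand, and capitals mark both forms on either strand (CACGT and CACGC where the match is on the opposite strand). Matches may overlap, and the palindrome CACGTG holds 2.
Pgk1, chrX:106186850-106187099, plus strand: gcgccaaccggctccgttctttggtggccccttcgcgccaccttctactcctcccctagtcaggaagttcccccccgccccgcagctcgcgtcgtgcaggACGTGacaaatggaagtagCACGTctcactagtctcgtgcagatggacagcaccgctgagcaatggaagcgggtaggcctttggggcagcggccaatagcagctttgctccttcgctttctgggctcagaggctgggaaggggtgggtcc
Pgam1, chr19:41911621-41911870, plus strand: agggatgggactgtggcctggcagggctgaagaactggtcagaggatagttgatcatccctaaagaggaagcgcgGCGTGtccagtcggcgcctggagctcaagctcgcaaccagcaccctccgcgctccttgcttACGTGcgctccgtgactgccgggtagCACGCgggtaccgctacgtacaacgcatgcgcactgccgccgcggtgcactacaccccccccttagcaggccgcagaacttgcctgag
Ldha, chr7:46845554-46845803, plus strand: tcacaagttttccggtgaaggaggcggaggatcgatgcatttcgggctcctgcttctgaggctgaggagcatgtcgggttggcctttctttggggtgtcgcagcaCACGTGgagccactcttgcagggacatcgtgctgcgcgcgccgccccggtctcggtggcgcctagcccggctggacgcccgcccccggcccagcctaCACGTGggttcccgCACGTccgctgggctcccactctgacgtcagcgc
Egln3, chr12:54203875-54204124, minus strand: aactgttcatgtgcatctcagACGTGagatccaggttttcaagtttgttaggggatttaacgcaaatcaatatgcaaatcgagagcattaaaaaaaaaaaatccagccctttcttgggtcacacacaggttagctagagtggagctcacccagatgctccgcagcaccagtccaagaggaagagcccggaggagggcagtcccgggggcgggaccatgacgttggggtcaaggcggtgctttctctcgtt
Pfkm, chr15:98092339-98092588, plus strand: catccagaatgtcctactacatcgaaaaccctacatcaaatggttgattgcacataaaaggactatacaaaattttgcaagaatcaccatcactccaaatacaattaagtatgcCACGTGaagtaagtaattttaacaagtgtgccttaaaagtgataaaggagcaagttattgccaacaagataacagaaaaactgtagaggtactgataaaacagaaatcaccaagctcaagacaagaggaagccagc
Adm, chr7:110627407-110627656, plus strand: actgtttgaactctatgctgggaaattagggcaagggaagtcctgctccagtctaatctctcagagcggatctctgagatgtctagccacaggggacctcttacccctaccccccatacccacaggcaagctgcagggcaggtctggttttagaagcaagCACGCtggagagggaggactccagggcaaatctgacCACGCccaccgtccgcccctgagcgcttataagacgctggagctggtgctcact
Pgk1 had 2 matches, both of ACGTG, 150 and 131 bases before the start. Pgam1 had 3, at 175, 114 and 88 bases, of which 1 was ACGTG and 2 were GCGTG. Ldha had 5 matches of ACGTG in 3 stretches, the farthest 145 bases before the start, and Egln3 had 1 of ACGTG at 229 bases. Pfkm had the palindrome 136 bases before this start. Adm had 2 matches, both of GCGTG, at 90 and 54 bases. Over windows of 300 bases (250 before to 50 after the first listed start), 29 of the 36 members with an entry (80.6%) held a match of either form, beside 6941 of 11458 tested genes (60.6%) and 43.8% of all 32851 windows. ACGTG alone was in 18 of the 36 and in 25.0% of tested genes, and GCGTG alone in 21 of the 36 and in 48.9%. A match of either form was held by 22 of 29 (75.9%) of the members higher at day 3 in both genotypes and by 4 of 4 of those lower in both. A match describes the letters only, and Ndrg1 had no entry.

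Hif1a encodes HIF-1alpha, the oxygen-regulated subunit, and lies at chr12:73901375-73947530 on the plus strand. In S7fl/fl libraries, in order of replicate number, it had 84.3, 72.6 and 71.8 CPM at baseline, 339, 407, 319, 401 and 278 at day 3, and 178, 243 and 193 at day 7. In MyS7KO libraries it had 81.1, 84.6 and 74.4 CPM at baseline, 364, 287, 271, 299 and 260 at day 3, and 140, 174, 208 and 178 at day 7. Every day 3 library was above every day 7 library, and every day 7 library above every baseline library. At day 3 Hif1a was 4.57-fold above baseline in S7fl/fl, a log2 change (± SE) of 2.19 ± 0.153 (edgeR adjusted p = 6.53e-11), and 3.7-fold in MyS7KO, 1.89 ± 0.151 (edgeR adjusted p = 4.37e-10). It then fell by 1.71-fold and 1.69-fold to day 7.

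Egln1 and Egln3 encode prolyl hydroxylases that mark HIF-1alpha for destruction, and Egln3 is itself a HIF target. Egln3 was at 2.23, 2.26 and 2.91 CPM in the S7fl/fl baseline libraries and at 14.6, 38.6, 13, 25.4 and 14.8 CPM at day 3, and then at 7.44, 5.74 and 9.58 CPM at day 7. In MyS7KO it was at 2.53, 3.49 and 1.39 CPM at baseline, 27.2, 16.3, 16.4, 14.1 and 14 CPM at day 3 and 6.17, 7.79, 22 and 11.6 CPM at day 7. No library after infarction overlapped with baseline, and within day 3 the S7fl/fl replicates 2 and 4 and the MyS7KO replicate 1 stood highest. The log2 rise to day 3 was 3.10 ± 0.47 (edgeR adjusted p = 1.17e-05) in S7fl/fl and 2.84 ± 0.469 (edgeR adjusted p = 3.03e-05) in MyS7KO. From day 3 to day 7 it changed by -1.49 ± 0.422 (edgeR adjusted p = 0.0158) in S7fl/fl, a call that ended without day 7 replicate 2 or replicate 3 (edgeR adjusted p = 0.0642 and 0.0693). In MyS7KO the difference was -0.57 ± 0.367 (edgeR adjusted p = 0.234), and without day 7 replicate 4, the highest of its group, it was -1.04 and passed. Egln1 passed the test in none of the 6 comparisons of times, with log2 differences between -0.32 and 0.18. Its lowest, from day 3 to day 7 in S7fl/fl (edgeR adjusted p = 0.0589), passed without any 1 of 6 libraries (0.0346 to 0.05), and that in MyS7KO without day 7 replicate 4 (0.0133). Per unit length, on the deposited FPKM, Egln3 made up 5% ± 0.66 (SD, n = 3) of the sum of both genes in S7fl/fl at baseline, 28.6% ± 8.56 (SD, n = 5) at day 3 and 15.8% ± 2.85 (SD, n = 3) at day 7. The same shares in MyS7KO were 5.26% ± 1.86 (SD, n = 3), 26% ± 5.73 (SD, n = 5) and 20.8% ± 6.55 (SD, n = 4).

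**Figure D3:**
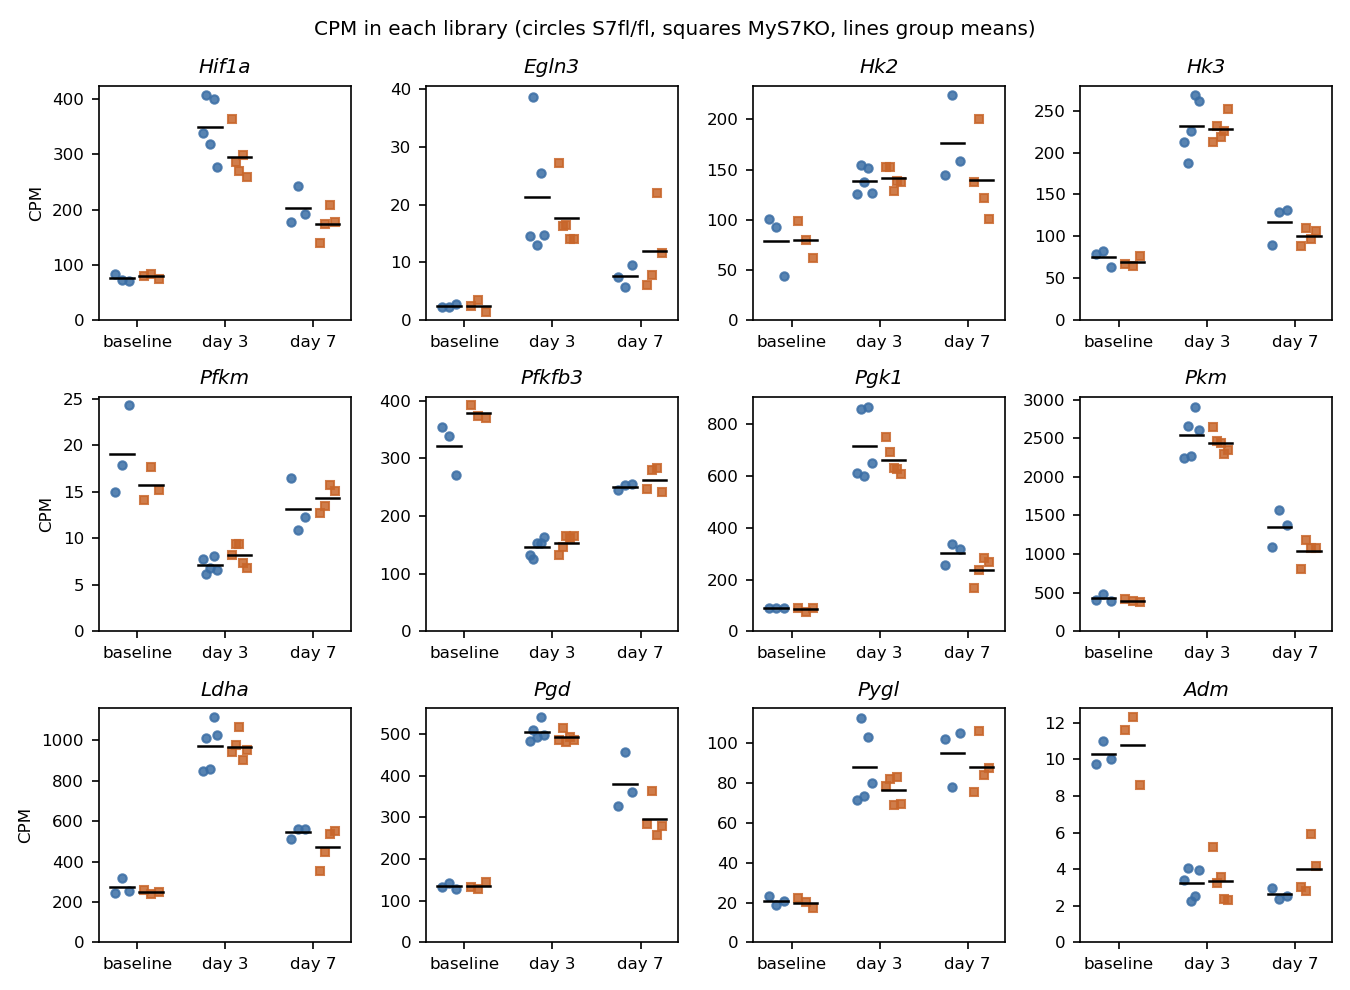
CPM (y axis, from 0) of 12 members in each library at baseline, day 3 and day 7, with S7fl/fl as blue circles, MyS7KO as orange squares and group means as black lines. Hif1a, Hk3, Pgk1, Pkm, Ldha and Pgd were highest at day 3, Pygl and Hk2 overlapped between day 3 and day 7, and Pfkm, Pfkfb3 and Adm were below baseline at day 3.

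Among the 6 hypoxia response genes, 4 rose, 1 fell and 1 did not pass at day 3, in each genotype. Mif, a cytokine released by macrophages and a HIF target, changed most. Its S7fl/fl libraries had 16.4, 31.3 and 20.7 CPM at baseline, 121, 171, 125, 168 and 169 at day 3, and 71.5, 72 and 69.8 at day 7, and its MyS7KO libraries 21.4, 20.9 and 25.1 CPM at baseline, 152, 154, 184, 132 and 151 at day 3, and 38.2, 53.9, 66.6 and 74 at day 7. All 10 day 3 values were above all day 7 values, and these above all baseline values. The log2 rise to day 3 was 2.73 ± 0.214 (edgeR adjusted p = 7.82e-10) in S7fl/fl and 2.78 ± 0.215 (edgeR adjusted p = 5.5e-10) in MyS7KO, and at day 7 Mif was still 3.13-fold and 2.59-fold above baseline. Ndrg1, a stress response gene induced by hypoxia, rose as well and did not pass between day 3 and day 7. In S7fl/fl it had 67.9, 94.4 and 66.3 CPM at baseline, 220, 235, 212, 216 and 235 at day 3, and 195, 276 and 268 at day 7. In MyS7KO it had 89.9, 86 and 43.2 CPM at baseline, 239, 238, 157, 209 and 213 at day 3, and 205, 292, 197 and 198 at day 7. Day 3 and day 7 overlapped in both genotypes, and the differences between them were 0.14 ± 0.194 and 0.08 ± 0.179, with both days above baseline by log2 1.53 to 1.69.

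Bnip3, a mitophagy receptor, rose at day 3 by 1.34 ± 0.237 (edgeR adjusted p = 4.84e-05) in S7fl/fl and 1.03 ± 0.234 (edgeR adjusted p = 0.000632) in MyS7KO. At day 3 it had 32.5, 58, 27.9, 46.3 and 25.9 CPM in the S7fl/fl and 48.8, 31.5, 31, 29 and 27.8 CPM in the MyS7KO libraries, where S7fl/fl replicates 2 and 4 and MyS7KO replicate 1 again stood highest. Its later calls depended on which libraries were included and on the method. The fall to day 7 in S7fl/fl ended as a call without day 3 replicate 2 or 4 or day 7 replicate 2 or 3 (edgeR adjusted p = 0.0741 to 0.139), and in MyS7KO without day 3 replicate 1 or day 7 replicate 1 or 3 (0.0644 to 0.106). Both falls also ended without the low-count filter (edgeR adjusted p = 0.0788 and 0.0626). They ended as well by limma on weighted counts (adjusted p = 0.0686 and 0.104) and on unfiltered FPKM (0.0928 and 0.0748). The S7fl/fl fall ended with only the groups compared (edgeR adjusted p = 0.12), and the MyS7KO fall with a replicate block (0.0588). The call above baseline at day 7 in S7fl/fl ended without baseline replicate 2 or 3 or day 7 replicate 2 or 4 (0.0837 to 0.138). It also ended without the low-count filter (edgeR adjusted p = 0.0652) and with a replicate block (0.0659). In MyS7KO, Bnip3 was called above baseline at day 7 only with only the groups compared (edgeR adjusted p = 0.0376). Higd1a, a mitochondrial protein of the hypoxia response, rose at day 3 by 0.96 ± 0.165 and 1.27 ± 0.167 and fell again by day 7. Its call above baseline at day 7 in MyS7KO (edgeR adjusted p = 0.0463) ended without any 1 of 10 libraries (0.051 to 0.186), and its fall in S7fl/fl without day 7 replicate 2 or 4 (edgeR adjusted p = 0.0604 and 0.0894). That day 7 call in MyS7KO also ended under most other settings. In edgeR these were RLE scaling (adjusted p = 0.0547), only the groups compared (0.114), a replicate block (0.093) and sex as a covariate (0.15). It ended as well by DESeq2 (adjusted p = 0.0535) and by limma on FPKM (adjusted p = 0.0688 to 0.14).

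Adm, the precursor of the vasodilator peptide adrenomedullin and a known HIF target, went the other way. It had 9.75, 11 and 10 CPM in S7fl/fl at baseline, 3.41, 4.08, 2.28, 2.54 and 3.94 CPM at day 3 and 2.99, 2.38 and 2.51 CPM at day 7. MyS7KO libraries had 11.6, 12.3 and 8.62, then 5.22, 3.24, 3.58, 2.37 and 2.34, then 3.03, 2.81, 5.94 and 4.18 CPM. Every library after infarction was below every baseline library, and the 2 later times overlapped. The log2 fall to day 3 was -1.65 ± 0.25 (edgeR adjusted p = 5.19e-06) in S7fl/fl and -1.68 ± 0.249 (edgeR adjusted p = 3.62e-06) in MyS7KO. Endothelial markers, of cells that also express Adm, fell over the same times (6 of 6 at day 3 in each genotype), and their part in this result was not tested. Ankrd37, an ankyrin repeat gene induced by hypoxia, passed in no comparison of the main model. It was at 4.49 to 5.6 CPM in S7fl/fl at baseline, 2.48 to 4.69 CPM at day 3 and 1.83 to 3.51 CPM at day 7. The last difference from baseline (-0.83 ± 0.348, edgeR adjusted p = 0.05) passed without any 1 of 6 libraries (0.0268 to 0.0496) and by DESeq2 (0.0361). In edgeR it also passed with RLE scaling (adjusted p = 0.049), only the groups compared (0.0348) and a replicate block (0.0404). By limma it passed on weighted counts (adjusted p = 0.0495) and on filtered FPKM (0.0365 and 0.0391). It did not pass without the filter or with sex as a covariate. Its day 3 difference in S7fl/fl passed by limma on weighted counts only (adjusted p = 0.0473). It overlaps Ufsp2 on the opposite strand, which had a mean of 644 counts beside 69 for Ankrd37, and whether the counting used strand is not given in the sources used here.

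The 3 hexokinases, which phosphorylate glucose on entry, all rose by day 3 in both genotypes. Hk3, the myeloid-enriched form, had 78.9, 82.7 and 64.2 CPM at baseline, 212, 187, 226, 269 and 261 at day 3, and 89.6, 129 and 132 at day 7 in S7fl/fl. The MyS7KO libraries had 67.7, 64.5 and 76.9 CPM at baseline, 212, 231, 218, 226 and 252 at day 3, and 88.5, 110, 97.5 and 106 at day 7. All day 3 libraries were above all others, and day 7 lay between. Its rise to day 3 was 1.62 ± 0.137 (edgeR adjusted p = 1.2e-09) and 1.71 ± 0.138 (edgeR adjusted p = 4.99e-10), and its fall to day 7 was -0.99 ± 0.133 and -1.18 ± 0.121.

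Hk2, the form induced by insulin and hypoxia, rose by day 3 and did not pass between day 3 and day 7. S7fl/fl libraries had 101, 93.1 and 44.1 CPM at baseline, 126, 154, 138, 151 and 127 at day 3, and 145, 224 and 158 at day 7, and MyS7KO libraries 99, 80.1 and 61.7 CPM at baseline, 152, 152, 129, 139 and 138 at day 3, and 138, 200, 122 and 101 at day 7. Every library after infarction was above every baseline library of its genotype, while days 3 and 7 overlapped. At day 3 Hk2 rose by 0.81 ± 0.234 (edgeR adjusted p = 0.00495) in S7fl/fl and 0.82 ± 0.234 (edgeR adjusted p = 0.00433) in MyS7KO, and at day 7 it was 1.14 ± 0.257 and 0.81 ± 0.243 above baseline. The day 7 call in MyS7KO ended without baseline replicate 3 (edgeR adjusted p = 0.0616) and with sex as a covariate (0.051). Hk1, the housekeeping form, had 77.4, 85.4 and 64.8 CPM at baseline, 91.5, 100, 89.2, 103 and 89.3 at day 3, and 68.8, 93.4 and 83.3 at day 7 in S7fl/fl, and 86.2, 76.5 and 53.6 CPM at baseline, 114, 95.1, 86.5, 90 and 86.7 at day 3, and 76.6, 86.4, 86.5 and 70.2 at day 7 in MyS7KO. Day 3 was above baseline in every library. Day 7 overlapped with baseline in both genotypes and with day 3 in S7fl/fl. Hk1 rose by 0.32 ± 0.135 (edgeR adjusted p = 0.0424) in S7fl/fl and 0.39 ± 0.136 (edgeR adjusted p = 0.0147) in MyS7KO. The S7fl/fl call ended without baseline replicate 1 or 3 or day 3 replicate 2 or 4 (edgeR adjusted p = 0.0591 to 0.189), and the MyS7KO call without baseline replicate 3 (0.158).

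Per unit length, Hk3 held 48.6% ± 4.6 (SD, n = 3) of the summed hexokinase FPKM in S7fl/fl at baseline, 64.3% ± 4.23 (SD, n = 5) at day 3 and 44.8% ± 4.2 (SD, n = 3) at day 7. Hk2 held 30.3% ± 6.73, 24.2% ± 3.13 and 41.5% ± 4.22 (SD, same libraries). The MyS7KO shares followed the same course, with Hk3 at 46.8% ± 7.86 (SD, n = 3), 63.9% ± 2.77 (SD, n = 5) and 45.8% ± 5.61 (SD, n = 4). The day 3 shares of Hk3 (57.5 to 69% and 59.7 to 67.2%) did not overlap with baseline or day 7 in either genotype.

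**Figure D4:**
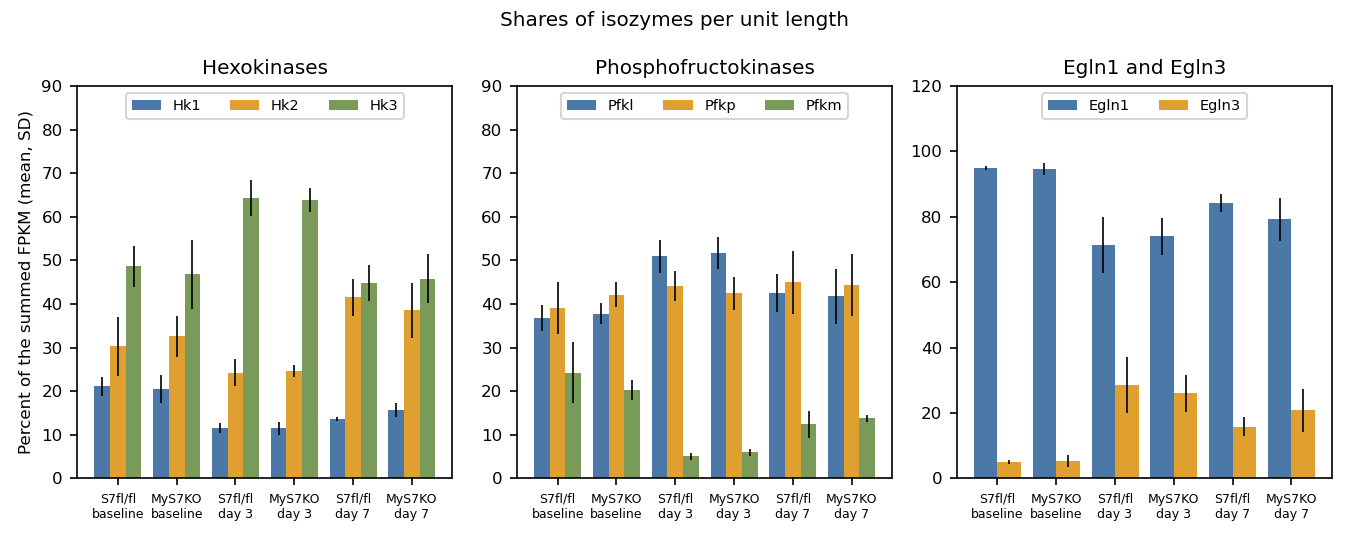
Mean share (y axis, percent of the summed FPKM, from 0; error bars are SD over the libraries of a group) of each hexokinase, each phosphofructokinase, and Egln1 and Egln3, by group. Hk3 took its highest share at day 3, Hk2 at day 7, and Pfkm its lowest share at day 3.

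In upper glycolysis, 6 of 8 rows rose and 2 fell by day 3 in S7fl/fl, and 6 rose and 1 fell in MyS7KO. Aldoa, the main aldolase, which cleaves fructose 1,6-bisphosphate, had 264, 368 and 295 CPM at baseline, 1050, 1338, 1145, 1522 and 1371 at day 3, and 849, 894 and 900 at day 7 in S7fl/fl and rose by 2.06 ± 0.138 (edgeR adjusted p = 3.36e-11). Its MyS7KO libraries had 311, 297 and 309 CPM at baseline, 1253, 1345, 1351, 1187 and 1263 at day 3, and 593, 759, 810 and 841 at day 7, with a rise of 2.07 ± 0.138 (edgeR adjusted p = 2.79e-11). No 2 times overlapped within a genotype. Tpi1, which interconverts the triose phosphates, had 131, 156 and 137 CPM at baseline, 436, 599, 453, 630 and 504 at day 3, and 280, 272 and 322 at day 7 in S7fl/fl. Its MyS7KO libraries had 134, 132 and 150 CPM at baseline, 541, 500, 497, 458 and 467 at day 3, and 196, 263, 292 and 307 at day 7. Here too the times stood apart in both genotypes, and the rise to day 3 was 1.89 ± 0.143 (edgeR adjusted p = 2.21e-10) and 1.83 ± 0.143 (edgeR adjusted p = 3.12e-10).

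Gpi1, the glucose 6-phosphate isomerase, rose by 0.78 ± 0.119 and 0.83 ± 0.119. Gpi1 was not called between day 3 and day 7 in S7fl/fl (edgeR adjusted p = 0.0632) but passed without any 1 of 5 libraries (0.0414 to 0.0479), and its day 7 call above baseline in MyS7KO ended without any 1 of 5 libraries (0.0501 to 0.0757). Aldoc, a minor aldolase with 0.322 to 1.09% of the summed aldolase FPKM in all libraries, had 1.45, 2.26 and 1.07 CPM at baseline, 5.58, 16.5, 6.78, 13.4 and 7.31 at day 3, and 6.95, 6.41 and 7.85 at day 7 in S7fl/fl, and 2.01, 2.13 and 1.78 CPM at baseline, 8.25, 10.3, 6.8, 7.91 and 7.43 at day 3, and 5.44, 6.26, 6.23 and 6.99 at day 7 in MyS7KO. Both later times were above baseline in every library and overlapped with each other, with a rise to day 3 of 2.65 ± 0.315 (edgeR adjusted p = 1.85e-07) and 2.04 ± 0.306 (edgeR adjusted p = 4.32e-06). The second Aldoa row (ENSMUSG00000114515, chr7:126800790-126809108, adjoining Aldoa) held at most 1.25 CPM. It changed by -2.33 ± 0.761 in S7fl/fl, a call that ended without baseline replicate 1 (edgeR adjusted p = 0.0571), and differed by -0.92 ± 0.665 at day 3 and -1.53 ± 0.742 at day 7 in MyS7KO, the latter passing without baseline replicate 3 (0.0403).

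Of the 3 phosphofructokinases, which commit sugar to glycolysis, 2 rose and 1 fell. Pfkl, the liver form, rose by 1.32 ± 0.145 (edgeR adjusted p = 6.22e-08) in S7fl/fl and 1.29 ± 0.145 (edgeR adjusted p = 7.72e-08) in MyS7KO. Pfkp, the platelet form, rose by 1.01 ± 0.138 and 0.83 ± 0.137, and it overlaps Pitrm1 on the opposite strand (mean 750 counts beside 3535). Its fall to day 7 in S7fl/fl (edgeR adjusted p = 0.0498) ended as a call without any 1 of 13 libraries (0.0502 to 0.299), and its calls at day 7 in MyS7KO ended without baseline replicate 3 (0.0666, against baseline) and without day 3 replicate 1 or day 7 replicate 4 or 5 (0.0503 to 0.079, against day 3). The muscle form Pfkm fell by day 3 in both genotypes. It had 15, 17.9 and 24.3 CPM at baseline, 7.81, 6.15, 6.78, 8.12 and 6.57 at day 3, and 16.5, 10.9 and 12.3 at day 7 in S7fl/fl, and 14.1, 17.7 and 15.2 CPM at baseline, 8.25, 9.41, 9.36, 7.35 and 6.83 at day 3, and 12.7, 13.5, 15.7 and 15.1 at day 7 in MyS7KO. All day 3 libraries were below all baseline and day 7 libraries. The log2 fall was -1.42 ± 0.159 (edgeR adjusted p = 7.4e-08) and -0.92 ± 0.159 (edgeR adjusted p = 2.61e-05), followed by a rise to day 7 of 0.90 ± 0.162 and 0.79 ± 0.149. Pfkm made up 24.2% ± 6.96 (SD, n = 3) of the summed phosphofructokinase FPKM in S7fl/fl at baseline, 5.03% ± 0.783 (SD, n = 5) at day 3 and 12.4% ± 3.14 (SD, n = 3) at day 7. The 10 cardiomyocyte markers moved the same way at day 3 (10 of 10 fell in each genotype). From day 3 to day 7, 0 of 10 were called higher in S7fl/fl and 2 of 10 in MyS7KO. Their median log2 differences there were 0.68 and 0.59. The part of these markers' cells in the Pfkm result was not tested. Pfkm also overlaps Senp1 on the opposite strand (mean 562 counts beside 227), and reads of the pair may not be separated. Its day 7 call below baseline in S7fl/fl ended without baseline replicate 3, day 7 replicate 3 or day 7 replicate 4 (edgeR adjusted p = 0.179, 0.103 and 0.068).

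Pfkfb3 and Pfkfb4 make and break fructose 2,6-bisphosphate, the strongest activator of phosphofructokinase, and both fell by day 3 in both genotypes. Pfkfb3 had 355, 338 and 271 CPM at baseline, 132, 126, 154, 153 and 164 at day 3, and 246, 253 and 255 at day 7 in S7fl/fl. Levels in MyS7KO were 393, 374 and 370 CPM at baseline, 133, 147, 165, 162 and 166 at day 3, and 247, 280, 284 and 242 at day 7. The 3 times did not overlap within a genotype, with day 3 lowest and baseline highest. The fall to day 3 was -1.14 ± 0.101 (edgeR adjusted p = 2.52e-09) and -1.30 ± 0.101 (edgeR adjusted p = 3.15e-10), and the later rise was 0.79 ± 0.102 and 0.77 ± 0.0948. Below baseline at day 7, Pfkfb3 was called in both genotypes, but in S7fl/fl not without baseline replicate 1 (edgeR adjusted p = 0.1) or with sex as a covariate (0.0902). Pfkfb4 had 50.8, 57.9 and 60.4 CPM at baseline, 35.8, 39.5, 37.9, 40.5 and 30.2 at day 3, and 51, 54.8 and 50.9 at day 7 in S7fl/fl, and 49.4, 60.5 and 64.4 CPM at baseline, 36.8, 39.4, 31.4, 31.8 and 30.8 at day 3, and 51.4, 56, 42.7 and 45.8 at day 7 in MyS7KO. Day 3 lay below both other times, which overlapped. Pfkfb4 changed by -0.61 ± 0.113 and -0.77 ± 0.113 and rose again by 0.51 ± 0.114 and 0.52 ± 0.105. At day 7 in MyS7KO it differed from baseline by -0.25 ± 0.119, and it was called below baseline there only without baseline replicate 1 or day 7 replicate 3 (edgeR adjusted p = 0.0466 and 0.0465).

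All 5 enzymes of lower glycolysis rose at day 3 in both genotypes and fell again by day 7 without reaching baseline. Pgk1, phosphoglycerate kinase, at chrX:106187100-106203699 on the plus strand, yields the first ATP of the pathway. It had 91.5, 88.4 and 90.6 CPM at baseline, 609, 858, 598, 864 and 650 at day 3, and 255, 335 and 316 at day 7 in S7fl/fl. Its MyS7KO levels were 89.3, 76.7 and 89.7 CPM at baseline, 750, 691, 628, 626 and 606 at day 3, and 168, 238, 281 and 266 at day 7. Each day 3 library had more than each day 7 library, and the lowest day 7 value, in MyS7KO replicate 1, was still above the highest baseline value. Its rise to day 3 was 7.94-fold in S7fl/fl, 2.99 ± 0.171 (edgeR adjusted p = 3.23e-12), and 7.75-fold in MyS7KO, 2.95 ± 0.171 (edgeR adjusted p = 3.48e-12), and it then fell by 2.37-fold and 2.77-fold.

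Pgam1, phosphoglycerate mutase, had 33.2, 35.4 and 26.3 CPM at baseline, 212, 262, 230, 243 and 198 at day 3, and 119, 159 and 150 at day 7 in S7fl/fl, and 35.8, 35.4 and 32.2 CPM at baseline, 277, 207, 202, 213 and 212 at day 3, and 105, 148, 105 and 119 at day 7 in MyS7KO. The times did not overlap, and MyS7KO replicate 1 stood above the other day 3 libraries of its genotype. It rose by 2.86 ± 0.152 (edgeR adjusted p = 1.17e-12) and 2.69 ± 0.151 (edgeR adjusted p = 2.23e-12) and kept more of its rise at day 7 (2.18 ± 0.156 and 1.79 ± 0.148 above baseline) than Pgk1 (1.74 ± 0.171 and 1.48 ± 0.163), a difference between the genes that was not tested. Reads of the copy Pgam1-ps2 amounted to 1% of those of Pgam1. Pkm, pyruvate kinase, had 410, 483 and 395 CPM at baseline, 2243, 2657, 2266, 2907 and 2607 at day 3, and 1093, 1574 and 1377 at day 7 in S7fl/fl. In MyS7KO it had 416, 392 and 383 CPM at baseline, 2649, 2458, 2438, 2295 and 2347 at day 3, and 812, 1180, 1075 and 1085 at day 7. It rose by 2.56 ± 0.144 (edgeR adjusted p = 2.46e-12) and 2.62 ± 0.144 (edgeR adjusted p = 1.67e-12) with no overlap between times. The counts do not separate its M1 and M2 isoforms, and it overlaps AC160637.1 on the same strand (mean 1394 counts beside 27457).

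Gapdh, the glyceraldehyde 3-phosphate dehydrogenase often used as a reference gene, had 546, 654 and 545 CPM at baseline, 2086, 2530, 2098, 2532 and 2230 at day 3, and 1215, 1424 and 1377 at day 7 in S7fl/fl. MyS7KO libraries had 592, 570 and 639 CPM at baseline, 2454, 2339, 2132, 2073 and 2134 at day 3, and 897, 1149, 1172 and 1231 at day 7. Its level was thus 3.95-fold higher at day 3 in S7fl/fl, 1.98 ± 0.123 (edgeR adjusted p = 1.13e-11), and 3.71-fold in MyS7KO, 1.89 ± 0.123 (edgeR adjusted p = 1.99e-11), and 2.3-fold and 1.85-fold higher at day 7. Eno1, enolase, rose by 2.27 ± 0.143 and 2.14 ± 0.142 and was 1.30 ± 0.147 and 0.96 ± 0.139 above baseline at day 7.

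Both genes at the fate of pyruvate rose. Ldha, the lactate dehydrogenase subunit that favours lactate, had 246, 321 and 254 CPM at baseline, 850, 1012, 858, 1117 and 1028 at day 3, and 513, 564 and 564 at day 7 in S7fl/fl, and 259, 239 and 251 CPM at baseline, 945, 978, 1069, 901 and 955 at day 3, and 355, 447, 538 and 550 at day 7 in MyS7KO. Times did not overlap. The rise to day 3 was 1.83 ± 0.138 (edgeR adjusted p = 2.01e-10) and 1.96 ± 0.139 (edgeR adjusted p = 7.07e-11), and at day 7 Ldha was 2-fold and 1.89-fold above baseline. Pdk1, the kinase that inhibits pyruvate dehydrogenase, was at 20.2, 19.1 and 21 CPM in S7fl/fl at baseline, 43.6, 62.2, 48, 58 and 39.1 at day 3 and 31.9, 27.3 and 35.3 at day 7. MyS7KO libraries had 21.2, 17.3 and 18.5, then 54.1, 47.1, 37.6, 40.7 and 40.2, then 23.4, 30.3, 30.3 and 34.7 CPM, and no 2 times overlapped. It rose by 1.32 ± 0.155 (edgeR adjusted p = 1.6e-07) in S7fl/fl and 1.21 ± 0.155 (edgeR adjusted p = 4.99e-07) in MyS7KO.

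In the pentose phosphate pathway, 5 of 6 enzymes rose in both genotypes and Rpia did not pass. Pgd, the second NADPH-yielding dehydrogenase, changed most in S7fl/fl. It had 134, 143 and 128 CPM at baseline, 483, 511, 494, 542 and 497 at day 3, and 328, 456 and 360 at day 7 in S7fl/fl, and 132, 128 and 144 CPM at baseline, 487, 514, 481, 493 and 486 at day 3, and 284, 364, 257 and 280 at day 7 in MyS7KO. The 10 day 3 libraries were above all day 7 libraries and these above all baseline libraries. Its log2 rise was 1.91 ± 0.115 (edgeR adjusted p = 6.9e-12) and 1.87 ± 0.115 (edgeR adjusted p = 8.13e-12), followed by a fall of -0.41 ± 0.107 and -0.73 ± 0.0986, of which the S7fl/fl call ended without day 7 replicate 2 (edgeR adjusted p = 0.0827). Taldo1, transaldolase of the non-oxidative branch, had 112, 146 and 112 CPM at baseline, 340, 343, 345, 364 and 418 at day 3, and 258, 349 and 330 at day 7 in S7fl/fl. In MyS7KO it had 109, 87 and 102 CPM at baseline, 356, 402, 431, 363 and 400 at day 3, and 210, 299, 230 and 242 at day 7. It rose by 1.56 ± 0.133 (edgeR adjusted p = 1.46e-09) and 1.97 ± 0.136 (edgeR adjusted p = 4.79e-11). The fall to day 7 passed in MyS7KO (-0.67 ± 0.116), and the S7fl/fl difference was -0.21 ± 0.126 (edgeR adjusted p = 0.245).

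G6pdx, which catalyses the entry step, rose by 1.08 ± 0.0955 and 0.95 ± 0.095, from 61.9 to 67.2 and 58.4 to 79.6 CPM to 130 to 144 and 113 to 142 CPM. It overlaps Ikbkg on the opposite strand (mean 678 counts beside 1870). Tkt, transketolase, rose by 1.31 ± 0.094 and 1.39 ± 0.0944, and its S7fl/fl fall to day 7 (edgeR adjusted p = 0.045) ended without any 1 of 10 libraries (0.0518 to 0.181). Pgls, the lactonase, had 20.8, 40.6 and 29.8 CPM at baseline, 64.1, 52.4, 63.4, 51.4 and 76.6 at day 3, and 61.2, 77.7 and 67.1 at day 7 in S7fl/fl, and 21.3, 21.9 and 29.9 CPM at baseline, 51, 75.3, 87.1, 58.5 and 72.1 at day 3, and 47.1, 63.8, 56 and 64.8 at day 7 in MyS7KO. Both later times were above baseline and overlapped with each other. Its rise was 1.02 ± 0.2 (edgeR adjusted p = 0.00014) and 1.50 ± 0.205 (edgeR adjusted p = 1.8e-06), and it did not pass between day 3 and day 7. Rpia, ribose 5-phosphate isomerase, ranged from 9.84 to 22.2 CPM over all libraries, with log2 differences from -0.29 to 0.12.

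The 3 glycogen genes rose at day 3, and of them only Pygl was called above baseline at day 7. Pygl, the glycogen phosphorylase that releases glucose 1-phosphate, had 23.4, 18.6 and 20.6 CPM at baseline, 71.5, 113, 73.6, 103 and 80.1 at day 3, and 102, 78.3 and 105 at day 7 in S7fl/fl. In MyS7KO its level was 22.5, 20.1 and 17.2 CPM at baseline, 78.7, 82, 68.8, 83.3 and 69.7 at day 3, and 75.7, 106, 84.2 and 87.8 at day 7. All libraries after infarction were above all baseline libraries, and days 3 and 7 overlapped. It rose by 2.08 ± 0.161 (edgeR adjusted p = 3.04e-10) and 1.94 ± 0.16 (edgeR adjusted p = 7.18e-10) and at day 7 was 2.19 ± 0.171 and 2.15 ± 0.166 above baseline. Gys1, glycogen synthase, had 8.34, 11 and 9.66 CPM at baseline, 15.6, 21.8, 18.6, 22.9 and 19.8 at day 3, and 13.6, 10.6 and 10.6 at day 7 in S7fl/fl, and 9.03, 10.1 and 8.43 CPM at baseline, 20.2, 15.5, 20.3, 15.3 and 14.7 at day 3, and 8.41, 10.1, 14.4 and 12.9 at day 7 in MyS7KO. Day 3 stood above the other times, which overlapped. Gys1 rose at day 3 by 1.03 ± 0.173 and 0.90 ± 0.174, changed by -0.77 ± 0.172 and -0.59 ± 0.156, and did not pass against baseline at day 7 (0.27 ± 0.19 and 0.32 ± 0.179), except in MyS7KO without day 7 replicate 1 (edgeR adjusted p = 0.0467). Gys1 overlaps Ruvbl2 on the opposite strand (mean 500 counts beside 252). Gbe1, the branching enzyme, had 13.4, 9.67 and 11.8 CPM at baseline, 18.8, 19.2, 14.8, 19.3 and 16.6 at day 3, and 11.8, 11.2 and 13.9 at day 7 in S7fl/fl, and 12, 11.8 and 13 CPM at baseline, 14.2, 18.9, 14.7, 18.3 and 18 at day 3, and 10.9, 15.4, 14.4 and 13 at day 7 in MyS7KO. Day 3 stood above baseline in both genotypes, and above day 7 in S7fl/fl. Gbe1 rose by 0.61 ± 0.14 and 0.46 ± 0.14 and changed by -0.53 ± 0.141 and -0.32 ± 0.127, where the MyS7KO call ended without any 1 of 8 libraries (edgeR adjusted p = 0.0502 to 0.18).

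How much of the day 3 change was present at day 7 varied between members. Among the 30 genes that rose at day 3, the log2 change from baseline at day 7 was 13.4 to 141% of that at day 3 in S7fl/fl, with a median of 60.4%, and 28.8 to 111% in MyS7KO, with a median of 52.0%. Day 3 and day 7 share their baseline libraries, so these values are a description. The pattern of higher at day 3, lower again from day 3 to day 7 and still above baseline was called for 19 rows in S7fl/fl and 20 in MyS7KO (4.65% and 7.88% of all genes tested), among them all 5 lower glycolytic enzymes, Ldha, Aldoa, Tpi1, Hk3, Hif1a and Mif. A rise at day 3 with no call from day 3 to day 7 and a call above baseline at day 7 was seen for 7 rows in S7fl/fl and 6 in MyS7KO (14.7% and 9.07% of all genes). Aldoc, Hk2, Ndrg1, Pgls and Pygl were in both. The day 7 share was 141 and 97.8% for Hk2, 109 and 105% for Ndrg1, 105 and 111% for Pygl, and 115 and 83.4% for Pgls.

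Per unit length, Gapdh was the most abundant member in every group, with an FPKM of 139 ± 15.7 (SD, n = 3) at baseline, 547 ± 55.8 (SD, n = 5) at day 3 and 317 ± 24.4 (SD, n = 3) at day 7 in S7fl/fl. Aldoa and Pkm followed, at 105 ± 18.2 and 84.9 ± 9.82 at baseline and 436 ± 66.8 and 500 ± 58.8 at day 3 (SD, same libraries). Within a library, Pkm was above Aldoa in 5 of 5 S7fl/fl libraries at day 3, in 0 of 3 at baseline and in 1 of 3 at day 7. Pgk1 moved from rank 10 of 37 at baseline to rank 4 at day 3 (39.7 ± 0.846 to 314 ± 59.8), and Pgam1 from rank 17 to rank 10. Pfkfb3 went from rank 9 to rank 20 (42.1 ± 6.22 to 19 ± 2.19), and Adm from rank 28 to the last. The ranks are those of S7fl/fl group means.

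Between the genotypes, none of the 38 rows passed at any time by edgeR, by DESeq2 or by limma on weighted counts. The background was 0.0121% of all genes at baseline, 0.0121% at day 3 and 0.0181% at day 7, or 2, 2 and 3 genes. At an unadjusted p under 0.05 there were 2 rows at baseline, 0 at day 3 and 8 at day 7, beside 375, 594 and 2173 of 16545 genes. Of the 3 rows with the lowest p at baseline, Taldo1 had a log2 difference of -0.31 ± 0.141, Pfkfb3 one of 0.24 ± 0.116 and Pfkm one of -0.28 ± 0.178 (edgeR adjusted p = 0.999 each). The baseline groups did not overlap for 3 rows, Taldo1, Pfkfb3 and Higd1a, where 6.2% of all genes were apart. At day 3 the 3 rows with the lowest p were the second Aldoa row at 1.52 ± 0.746, Hif1a at -0.24 ± 0.12 and Pygl at -0.21 ± 0.126. Their edgeR adjusted p was 0.982 each. The day 3 groups overlapped in all 38 rows (0 apart), where 0.562% of all genes were apart.

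At day 7, 31 of 38 rows lay below 0, where 8435 of all 16545 genes did. All 5 lower glycolytic and all 6 pentose phosphate enzymes were among the 31. The median was -0.17, beside -0.01 over all genes. No member passed. Pgd had 328, 456 and 360 CPM in S7fl/fl and 284, 364, 257 and 280 CPM in MyS7KO, a log2 difference of -0.36 ± 0.11 (edgeR adjusted p = 0.266). Pkm had 1093, 1574 and 1377 and 812, 1180, 1075 and 1085 CPM and differed by -0.38 ± 0.133 (edgeR adjusted p = 0.309). Taldo1 had 258, 349 and 330 and 210, 299, 230 and 242 CPM and differed by -0.35 ± 0.13 (edgeR adjusted p = 0.321). In each of the 3 genes the highest MyS7KO library lay above the lowest S7fl/fl library, and the groups did not overlap in 4 other genes (Eno1, Tkt, Aldoa and Gpi1), where 8.9% of all genes were apart. Without MyS7KO day 7 replicate 3, the Pgd difference passed (edgeR adjusted p = 0.0407). MyS7KO day 7 replicate 1 was the lowest library of its group for 25 of 37 genes, and it had the highest sum of fibroblast markers, 5080 CPM where the other 3 had 1771 to 4191 and S7fl/fl day 7 had 1285 to 3397. Whether these cells bear on the day 7 differences was not tested. All day 7 MyS7KO libraries had Xist and all day 7 S7fl/fl libraries had Y-linked RNA, so genotype and sex cannot be told apart at day 7. At baseline and day 3 each genotype had libraries of both kinds, so sex also differed in part between day 7 and earlier times. With sex as a covariate some day 7 calls ended. Against baseline these were Pfkfb3 and Bnip3 in S7fl/fl and Hk2, Gpi1 and Higd1a in MyS7KO (edgeR adjusted p = 0.051 to 0.15). Against day 3 they were Pfkp and Tkt in S7fl/fl and Bnip3 in MyS7KO (0.0733 to 0.0851).

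The genotype effect was also compared between times. The difference of the genotype effect passed for 0 rows and for 0% of all genes from baseline to day 3, 0% from baseline to day 7 and 0% from day 3 to day 7 (edgeR), while 2, 1 and 3 rows had an unadjusted p under 0.05, beside 741, 862 and 1726 of all genes. DESeq2 also called no member in these 3 comparisons.

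**Figure D5:**
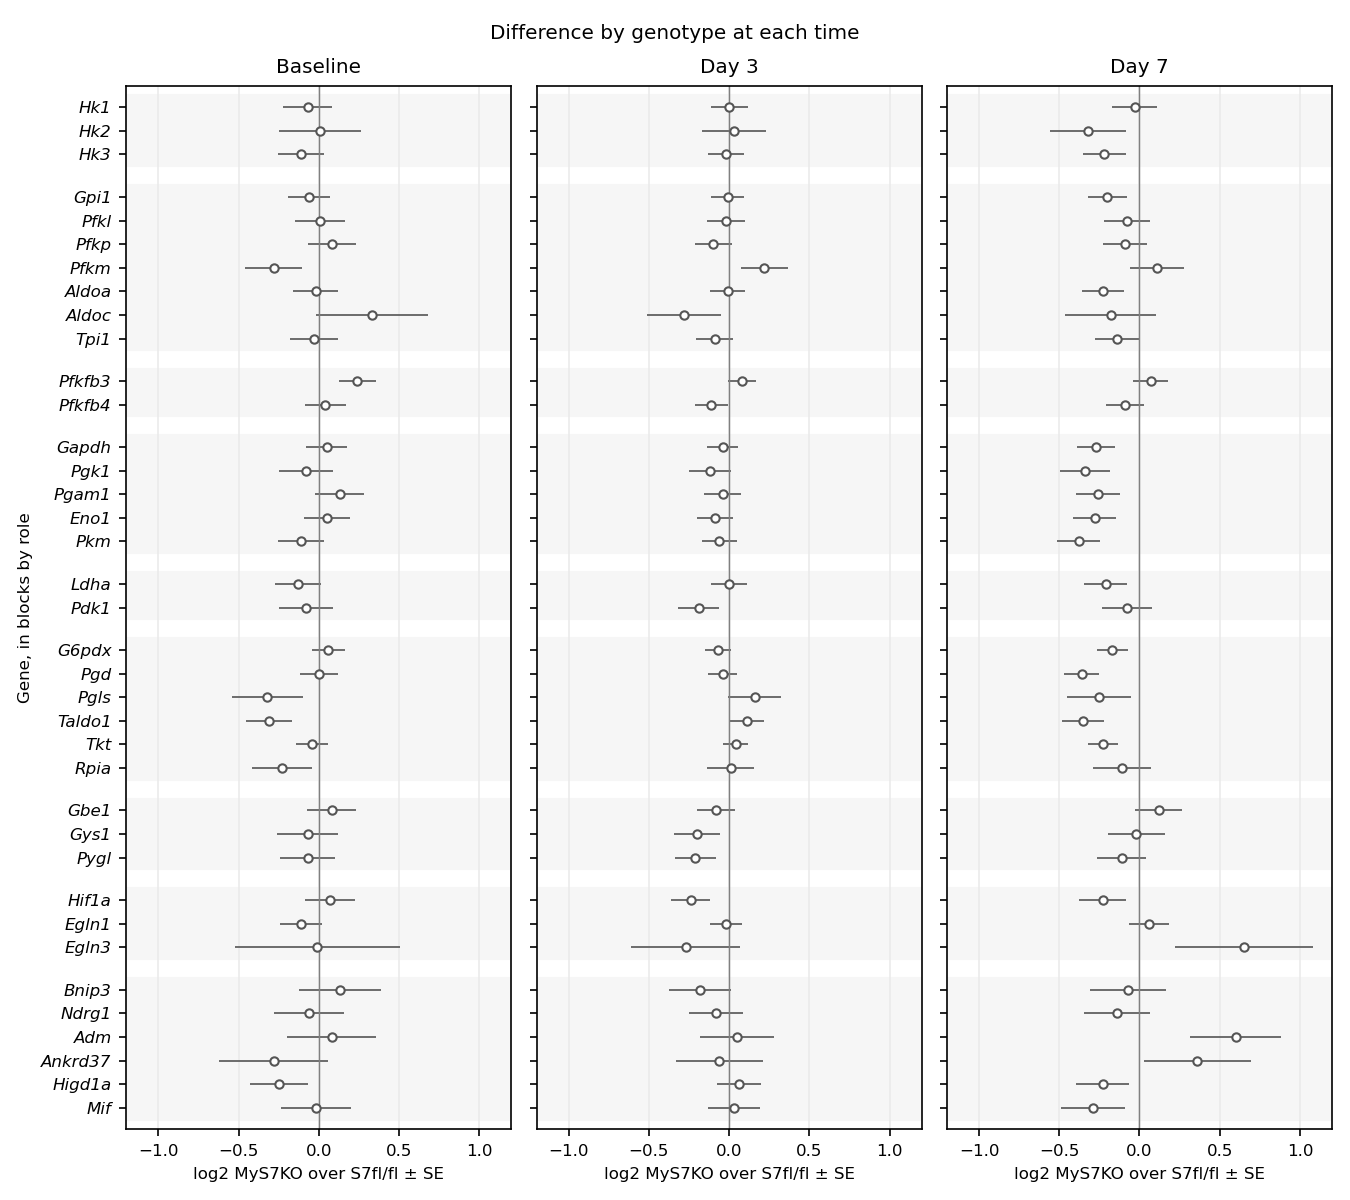
Log2 difference of MyS7KO over S7fl/fl (x axis, with standard error) for the 37 genes (y axis, in blocks by role) at baseline, day 3 and day 7. No gene passed the test, and at day 7 most points lie to the left of 0, where 8435 of all 16545 genes tested also lay.

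Of the 5 S7fl/fl day 3 libraries, replicate 4 was highest for 18 and replicate 2 for 11 of 37 genes, and their classical monocyte marker sums of 9202 and 8760 CPM were the highest of the 5. In MyS7KO at day 3, replicate 1 was highest for 14 genes and also had the highest sum, 6990 CPM, while replicates 2 and 3 were each highest for 10 genes at sums of 5638 and 3755 CPM, and replicate 4, with the second highest sum of 5855 CPM, was highest for 1 gene. The other S7fl/fl day 3 libraries had 4362 to 5875 CPM. The part of this in the spread of the members was not tested.

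Of 88 further genes on lists of transport, isozymes, pyruvate entry, pentose phosphate, glycogen, HIF regulation and hypoxia, 78 passed the low-count filter. Mxi1 and Slc2a1 stand on 2 lists each. At day 3 in S7fl/fl 31 of the 78 rose and 25 fell, with a median of 0.19, where 29.9% of all genes rose and 34.1% fell. In MyS7KO 29 rose and 23 fell, with a median of 0.14, against 30.7% and 35.2% of all genes. All 7 transporters of glucose and lactate were called in each genotype, 4 higher and 3 lower. Slc16a3, the lactate exporter MCT4, rose by 2.54 ± 0.178 in S7fl/fl and 2.64 ± 0.179 in MyS7KO, and Slc2a1, the glucose transporter GLUT1, by 2.08 ± 0.197 and 1.81 ± 0.194. Among other isozymes, 2 of 10 rose and 5 fell in S7fl/fl, with Eno2 at 2.38 ± 0.327 and Eno3, the muscle enolase, at -0.83 ± 0.146. Of 10 genes at the entry of pyruvate into mitochondria 7 rose and 2 fell in each genotype, led in S7fl/fl by Pdk3 at 1.01 ± 0.112 and Dlat at 0.87 ± 0.105. Of 6 other pentose phosphate genes 2 rose (Rpe at 0.94 ± 0.112 and H6pd at 0.61 ± 0.106) and 2 fell in S7fl/fl. Of 13 other glycogen genes 5 rose and 4 fell there, with Ugp2 at 0.97 ± 0.0877 and Pygm, the muscle phosphorylase, at -2.03 ± 0.237. Of 8 genes of HIF regulation 3 rose and 3 fell in S7fl/fl, with Mxi1 at 2.19 ± 0.16 and Epas1, which encodes HIF-2alpha, at -2.33 ± 0.306. Endothelial markers fell over the same time (6 of 6), and their part in the Epas1 result was not tested. Of 26 further hypoxia response genes 10 rose and 6 fell in S7fl/fl, with Vegfa, the vascular growth factor, at 3.45 ± 0.245. None of the 78 genes passed between the genotypes by edgeR.

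From day 3 to day 7 in S7fl/fl, 14 of the 78 rose and 19 fell, against 11.5% and 10.1% of all genes. Slc16a3 changed by -0.96 ± 0.164 and Slc16a1, the lactate transporter MCT1, by -0.45 ± 0.111, in a list where 1 of 7 rose and 2 fell. Among pyruvate entry genes 1 rose and 4 fell, with Pdk3 at -0.74 ± 0.111 and Pdk2 at 1.15 ± 0.233, both kinases of pyruvate dehydrogenase. Of other isozymes 1 rose, Ldhb, the heart-type lactate dehydrogenase subunit, at 0.87 ± 0.162, and 1 fell, Tigar, a fructose 2,6-bisphosphatase, at -0.61 ± 0.168. Both called genes of the further pentose phosphate list fell, Rpe at -0.54 ± 0.111 and Prps1, a phosphoribosyl pyrophosphate synthetase, at -0.37 ± 0.0978. Of further glycogen genes 4 rose and 3 fell, with Ugp2 at -0.51 ± 0.086 and Pgm2 at -0.72 ± 0.17. Among HIF regulators 2 rose and 1 fell, with Hif1an, an asparaginyl hydroxylase of HIF, at -0.40 ± 0.11 and Vhl, which targets hydroxylated HIF for destruction, at 0.39 ± 0.127. Of further hypoxia response genes 5 rose and 6 fell, with Stc2 at 2.55 ± 0.457 and Ero1l, an oxidase of the endoplasmic reticulum, at -0.85 ± 0.164.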

How the data were processed

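RNA from Ly6G- CD11b+ cardiac cells was sequenced in 23 libraries. The authors deposited read counts and FPKM (fragments per kilobase, scaled for depth) per gene in 2 tables for the whole series. Per the submitters' processing notes, TopHat2 2.0.9, HTSeq 0.6.1 and Cufflinks 2.1.1 were used with mm10 and GRCm38.p6; their roles, and whether counting used strand, are not given in the sources used here. The deposited FPKM equalled counts divided by gene length and a constant of each library, to machine precision, over 8282 genes with at least 100 counts in every library.

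The deposited counts were analysed with edgeR 4.0.16 (R 4.3.3): TMM scaling, a filter on low counts that kept 16545 of 54532 genes, 1 model over all 6 groups without covariates, and quasi-likelihood tests of 6 comparisons of times, 3 of genotypes and 3 of the difference of the genotype effect. Benjamini-Hochberg adjusted p-values under 0.05 over all genes were called. The SE of a log2 change was derived from the test, as the absolute log2 change divided by the square root of its F statistic. CPM use the scaled library sizes. Ranks of members and shares within isozyme families used the deposited FPKM. Mean counts beside overlapping genes and copies, shares of all counts and marker sums were not scaled by gene length. Depth was 15479402 to 23884938 counts. Each named member was taken by a rule: up to 3 per role with the largest called log2 change at an average log2 CPM of at least 1, 7 enzymes and regulators given by name, the 3 lowest p per genotype comparison, and the 2 lowest p per further list at day 3 and from day 3 to day 7 in S7fl/fl. Other members are named to account for all 37 and were chosen after their values were seen. The members and lists were chosen with earlier results of these data known. Alternatives were RLE scaling, no filter, DESeq2 1.42.0, limma 3.58.1 on weighted counts or on log2(FPKM + 1) and log2(FPKM + 0.1), only the groups compared, a replicate block, sex as a covariate, leaving out 2 libraries of mixed sex, and leaving out each library. The code was tested on simulated data. Promoter windows came from RefSeq (GRCm38.p6).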

Additional observations from a re-analysis of the deposited data

Results flagged for a closer look

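In groups of 4 or 5 libraries, 8 of 114 member levels had 1 library far from the others, and chance gives about 1 in 20 such groups. Of these 8, 4 concerned MyS7KO day 3 replicate 1. Among the 5 libraries of its group it was the highest for Pgam1 (277 CPM), Egln3 (27.2 CPM) and Bnip3 (48.8 CPM), and the lowest for Rpia (14 CPM). In the same group, replicate 2 stood apart for Tkt at 456 CPM and replicate 3 for Ankrd37 at 6.02 CPM. At day 7 in MyS7KO, replicate 1 stood apart for Gpi1 at 302 CPM and replicate 3 for Ndrg1 at 292 CPM.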

How the results depend on the processing

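The number of members called was recomputed under 11 other settings and without each of the 23 libraries in turn. At day 3 against baseline it was 34 to 36 and 33 to 35 in S7fl/fl (35 as reported), and 34 to 35 and 33 to 34 in MyS7KO (34 as reported). At day 7 against baseline it was 27 to 30 and 27 to 30 in S7fl/fl (29), and 25 to 29 and 26 to 29 in MyS7KO (28). From day 3 to day 7 it was 22 to 27 and 19 to 27 in S7fl/fl (25), and 24 to 27 and 24 to 27 in MyS7KO (26). Some single calls in this last comparison ended under other settings. Without the low-count filter these included Pfkp and Tkt in S7fl/fl (edgeR adjusted p = 0.0573 and 0.16) and Gbe1 in MyS7KO (0.0963). Between genotypes no member was called under any of the 11 settings. Leaving out single libraries gave 0 to 1 members at day 7, the 1 being Pgd without MyS7KO day 7 replicate 3. Of 5406 recomputed values, which cover 159 results of the members named by the rule and not those of members such as Pfkp, Tkt, Bnip3 and Higd1a, 5358 kept their direction and side of the threshold, 29 lost a call, 7 gained one and 12 changed sign. The sign changes were all in uncalled differences near 0. Without single libraries, Adm in MyS7KO from day 3 to day 7 (0.248) ran from -0.004 to 0.467, Gbe1 in S7fl/fl at day 7 against baseline (0.082) from -0.032 to 0.204, Hk1 in MyS7KO at day 7 against baseline (0.149) from -0.026 to 0.323, Hk2 in MyS7KO from day 3 to day 7 (-0.018) from -0.239 to 0.112, and Ndrg1 there (0.076) from -0.08 to 0.133. Ndrg1 was -0.008 by limma on weighted counts and -0.013 without the libraries of mixed sex. The cause of these changes was not tested. Over all genes, the calls between genotypes were 2 at baseline (0 to 39 over the settings), 2 at day 3 (2 to 5) and 3 at day 7 (2 to 51, the latter by DESeq2). Those of the difference of the genotype effect were 0 (up to 15, 14 and 6).

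The replicate numbers were checked for pairing. Same-numbered libraries of the 2 genotypes had residual correlations of -0.352 to 0.272, and 4 of 10 correlated best with their own number. With so few pairs, these values cannot decide whether the numbers pair the samples. The main model used no pairing. With a replicate block, members called were 35, 30 and 25 in S7fl/fl and 34, 27 and 24 in MyS7KO (day 3 and day 7 against baseline, then day 7 against day 3), and 0 between genotypes. Ankrd37, Aldoc, Egln3 and the second Aldoa row were among the members with the widest standard errors. Of these, Egln3 had 1.39 to 3.49 CPM at baseline and 13 to 38.6 CPM at day 3.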
